A study of Mus musculus with 4 samples.

Results

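Accessible chromatin was described at 9 genes for inflammatory and suppressive cytokines, namely Il6, Il10, Tnf, Tgfb1, Osm, Il12a, Il12b, Il27 and Ebi3. A region was counted for a gene when it overlapped the gene extended by 70 kb on each side and had that gene's end as the nearest end of any protein-coding gene. By this rule 26 regions belonged to the 9 genes, out of 45299 regions in all, and every one of the 9 genes had at least 1. Open chromatin was mapped by ATAC-seq, which reads out where the transposase Tn5 could cut DNA. The groups were Sphk2 KO mice and WT mice, with 2 libraries each. KO stands for a knockout of Sphk2, the gene for sphingosine kinase 2, a producer of the signalling lipid sphingosine 1-phosphate. All mice carried EL4, a transplantable T cell lymphoma, and on day 14 cells positive for Gr1 and CD11b were sorted out of the ascites. Such cells are known as myeloid-derived suppressor cells (MDSCs), myeloid cells of immature type that hold back T cells. Each library was made from 20000 cells with 40% of the recommended Tn5. The labels call the libraries biological replicates without naming animals, ages, the Sphk2 allele or pooling, so the spread between libraries may be technical.

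The 9 genes fall into families with shared parts. Il6 and Osm encode ligands that signal through receptors containing the gp130 chain. Il10 and Tgfb1 encode cytokines that dampen inflammation and are products by which MDSCs restrain T cells. Tnf encodes an early inflammatory cytokine. Il12a, Il12b, Il27 and Ebi3 encode chains of the IL-12 family, whose cytokines are pairs. Il12a with Il12b gives IL-12, Il27 with Ebi3 gives IL-27, and Il12a with Ebi3 gives IL-35. Most of these genes are switched on by inflammatory signals through NF-κB, AP-1 and C/EBP factors that bind promoters and more distant enhancers.

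Peak lists, not read counts, were the data, so a region is present when the authors' caller listed a peak there at a q-value of 0.05. A region without a peak may still be open below that threshold. In these bulk samples, a smaller share of cells with open DNA and less open DNA per cell cannot be told apart. The lists rested on 25877428 and 27686223 retained fragments in Sphk2 KO replicates 1 and 2 and on 33859480 and 34443062 in WT replicates 1 and 2. They held 20759 and 27446 peaks in Sphk2 KO and 31507 and 31843 in WT. At Sphk2 itself, 1 region inside the gene was called in both Sphk2 KO libraries alone (−log10 q of 26.4 and 42.2), although peak lists do not measure the knockout. Another region assigned to Sphk2 was called in all 4 libraries, at 28.0 and 70.5 in Sphk2 KO and 61.6 and 73.5 in WT. Itgam, which encodes CD11b, was marked by a peak no more than 1 kb from an end in all 4 libraries, as were the neutrophil genes S100a8 and S100a9. Ly6g, a target of the Gr1 antibody, had none in any library. Of 10 granulocytic genes, 7 and 8 were marked in Sphk2 KO and 8 and 7 in WT, with Csf3r, Camp and Ltf marked in some libraries only. Among the other sort markers, Ly6c1 had no such peak, and Ly6c2 had one in every library except Sphk2 KO replicate 1. No B cell marker (0 of 8 genes) and no NK cell marker (0 of 6) had such a peak in any library.

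Promoter sequences from RefSeq (GRCm38.p6, the assembly of mm10) were at hand for 6 of the 9 genes, in 7 windows that run from 250 bases before to 50 bases after a gene start. Il10, Osm and Il27 were not matched. The 4 printed here are those whose coverage by peaks differed most plainly. Il6 was covered in WT libraries alone, Tnf and Ebi3 in every library and Il12b in none. Capitals mark letters that match one of the motifs listed after them, on either strand.
Il6 (chr5:30012864-30013163, + strand): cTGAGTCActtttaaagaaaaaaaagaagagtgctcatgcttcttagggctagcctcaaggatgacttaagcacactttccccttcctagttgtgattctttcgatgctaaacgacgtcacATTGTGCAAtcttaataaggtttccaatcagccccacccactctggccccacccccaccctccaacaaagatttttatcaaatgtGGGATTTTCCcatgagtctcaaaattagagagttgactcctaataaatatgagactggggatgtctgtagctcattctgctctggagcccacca
Tnf (chr17:35201958-35202257, − strand): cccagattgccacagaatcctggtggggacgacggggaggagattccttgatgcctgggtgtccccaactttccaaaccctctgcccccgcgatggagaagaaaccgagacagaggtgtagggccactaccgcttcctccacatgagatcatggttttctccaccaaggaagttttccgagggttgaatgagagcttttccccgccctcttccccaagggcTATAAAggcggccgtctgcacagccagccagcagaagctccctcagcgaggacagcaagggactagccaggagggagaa
Ebi3 (chr17:55952373-55952672, + strand): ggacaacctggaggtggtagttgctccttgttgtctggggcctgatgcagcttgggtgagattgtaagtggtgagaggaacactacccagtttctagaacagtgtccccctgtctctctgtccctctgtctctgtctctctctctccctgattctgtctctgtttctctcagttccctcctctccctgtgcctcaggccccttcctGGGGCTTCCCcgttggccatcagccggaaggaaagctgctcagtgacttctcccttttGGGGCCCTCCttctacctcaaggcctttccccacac
Il12b (chr11:44399813-44400112, + strand): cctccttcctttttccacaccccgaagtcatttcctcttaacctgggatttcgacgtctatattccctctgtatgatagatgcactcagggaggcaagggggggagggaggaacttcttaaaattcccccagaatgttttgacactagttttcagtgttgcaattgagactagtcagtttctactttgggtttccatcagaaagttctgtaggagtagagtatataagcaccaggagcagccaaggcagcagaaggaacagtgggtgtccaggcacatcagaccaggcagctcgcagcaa

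The motifs searched on both strands were the NF-κB consensus, AP-1 (TGACTCA), the cyclic AMP response element (TGACGTCA), C/EBP (TTGCGCAA and TTGCNNAAT), ETS/PU.1 (GAGGAAGT), STAT (TTCNNNGAA), the interferon response element (GAAANNGAA), SP1 (GGGGCGGG) and the TATA box (TATAAA). The Il6 window held 3 matches. An AP-1 match began 249 bases upstream of the start, a C/EBP match (TTGCNNAAT) 129 bases upstream and an NF-κB match 44 bases upstream. These motifs were present in 5.2%, 2.4% and 8.46% of all 32851 promoter windows. The Ebi3 window held NF-κB matches at 44 bases upstream, read on both strands, and at 14 bases downstream. Tnf had only a TATA box, 29 bases upstream, a motif present in 13.6% of windows. The Tgfb1 window, with 77.0% G and C against a median of 52.7% over all windows, had 2 SP1 matches (16.5% of windows) and 1 NF-κB site. The Il12b window and both windows of Il12a had no match. A match describes letters and does not show that a factor bound there.

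Il6 was the one gene of the 9 with regions that each WT library held and no Sphk2 KO library did. Regions in WT replicate 1 alone were also called at Il6, Tgfb1, Il12a and Il27. Il6 lies on chromosome 5 from 30013114 to 30019975 (mm10) and encodes a cytokine that drives the acute phase response and the expansion of MDSCs. No Il6 region was called in either Sphk2 KO library, against 3 and 2 regions in WT replicates 1 and 2, or 0 ± 0 against 2.5 ± 0.707 regions per library (SD, n = 2 each). The exact two-sided permutation p was 0.333 (1 after Benjamini-Hochberg adjustment over the 9 genes), and no smaller p is possible with 2 libraries against 2.

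The region at the Il6 promoter, 30012905 to 30013336, reached −log10 q of 3.61 and 5.42 in WT, with fold enrichment over local background of 3.54 and 3.93. Neither Sphk2 KO library had a peak there. The peak of WT replicate 1 spanned -209 to 222 bp and that of WT replicate 2 spanned -197 to 141 bp relative to the start, so the C/EBP and NF-κB letters printed above lay inside both peaks and the AP-1 letters outside. Both calls were weak, ranking at 76.5% and 71.1% of their lists, where 100% would be the weakest peak.

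A second Il6 region, 29948144 to 29948526, had its mean summit 64.8 kb from the gene on the promoter side. Its −log10 q values were 6.38 and 12.3 in WT, and no peak was listed in Sphk2 KO. Another region, 40.1 kb away on the same side, was called in WT replicate 1 alone at 1.82, close to the lowest value in that list (1.3). Over all merged regions, 5.43% were called in both WT and neither Sphk2 KO library. The 2 Il6 regions made 7.69% of the 26, a share near that background. Among protein-coding genes with a promoter window, 0.12% had a peak there in both Sphk2 KO and neither WT library and 1.26% in both WT and neither Sphk2 KO library. Of the 6 cytokine genes with a window, 0 and 1 (Il6) were called in these ways.

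**Figure D1:**
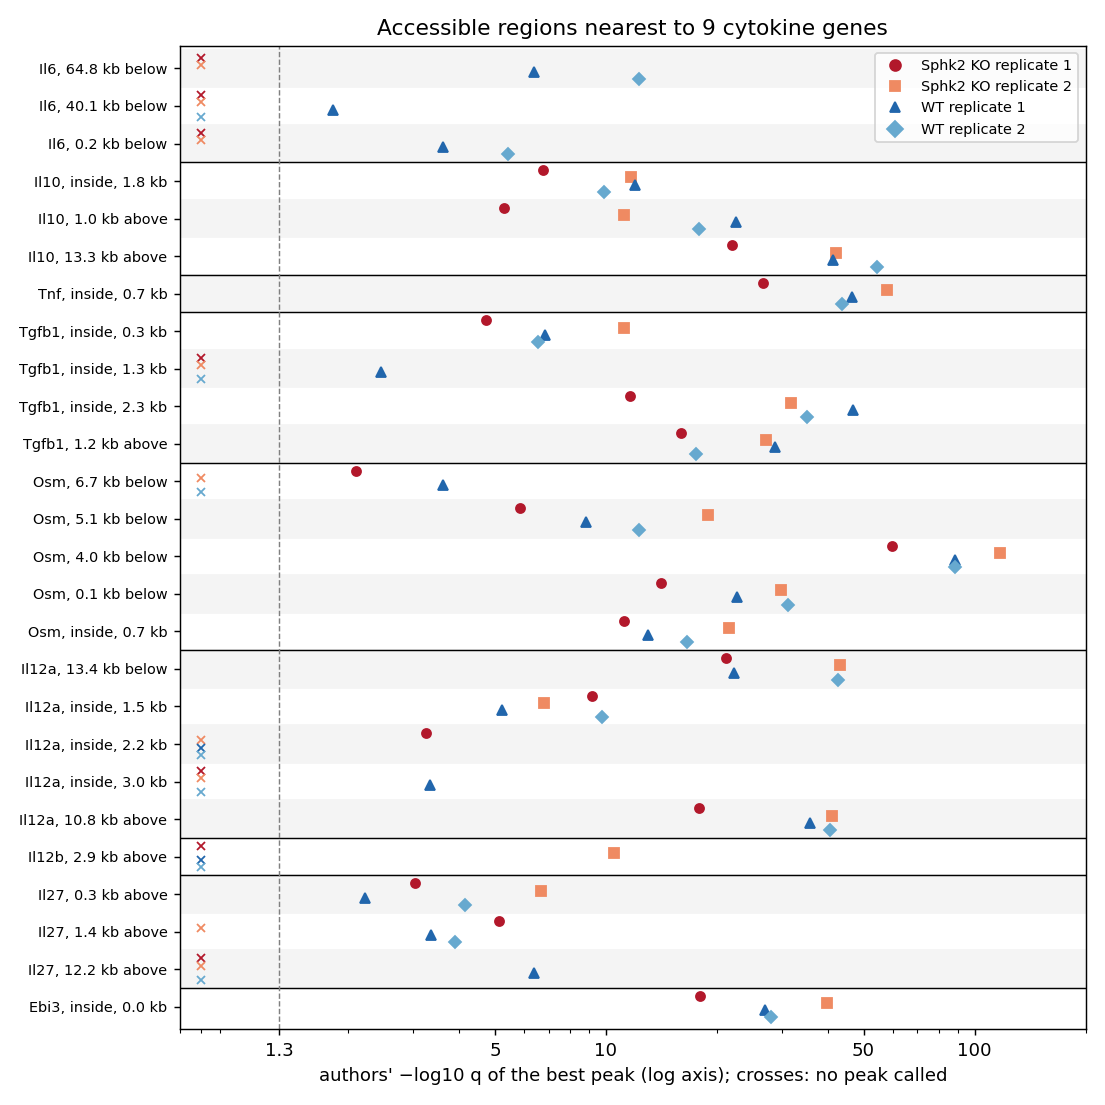
Strength of the 26 regions in each library. Each row is a region, named by its nearest cytokine gene and the distance of its mean summit from the nearer gene end (below or above in coordinate), the horizontal log axis gives the authors' −log10 q, and crosses mark libraries without a call. The Il6 rows hold WT points alone, at 1.82 to 12.3, while 16 rows hold points of all 4 libraries.

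The Il6 promoter calls depended on the strength asked of a peak. With the 20759 strongest peaks of every library, the lists ended at −log10 q of 5.83 and 7.25 in WT replicates 1 and 2, and the promoter region was no longer called, whereas the region 64.8 kb away was. Markers of monocytes and macrophages were called in fewer numbers in the same libraries. Peaks no more than 1 kb from a gene end marked 2 and 3 of 9 monocytic genes in Sphk2 KO, against 5 and 6 in WT. Csf1r and Klf4 were marked in every library, and Ly6c1, Ccr2 and Ms4a4c in none. Among 8 macrophage genes the counts were 1 and 2 in Sphk2 KO and 4 and 4 in WT, with Adgre1 marked throughout and C1qa, Marco and Timd4 at 0 throughout. T cell markers, shared by EL4, numbered 3 and 3 of 15 in Sphk2 KO and 3 and 7 in WT. Cd3d and Cd5 were marked in all 4 libraries, and Cd3e, Cd3g, Lck, Cd8a, Cd2, Tcf7 and Gata3 were at 0 in all 4. Over all protein-coding genes, 42.6% and 47.3% were marked in this way in Sphk2 KO and 47.9% and 48.8% in WT. The part of these cells in the Il6 calls was not tested. The depth and the length of the peak lists were also lower in Sphk2 KO, and these cannot be told apart from genotype.

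Osm had the strongest region of the set and no region confined to a genotype. Osm, the gene of oncostatin M, lies on chromosome 11 from 4236785 to 4241026, beside its relative Lif. Its 5 regions were called as 5 and 4 in Sphk2 KO and as 5 and 4 in WT. The strongest, 4232372 to 4233198, lay 4.0 kb outside the lower-coordinate end of the gene, with −log10 q of 59.6 and 117 in Sphk2 KO and 88.8 and 88.3 in WT. It ranked in the top 13.4% and 10.4% of the Sphk2 KO lists and in the top 8.74% and 10.5% of the WT lists. Among the 9 genes Osm held the best-ranked region in each of the 4 libraries.

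At the lower-coordinate gene end of Osm a broad region of 1876 bp had −log10 q of 14.1 and 29.8 in Sphk2 KO and 22.7 and 31.2 in WT. Inside the gene, 4240181 to 4240763, values were 11.2 and 21.6 in Sphk2 KO and 13 and 16.6 in WT. The remaining Osm regions, 5.1 and 6.7 kb away, were weaker, and the farther of them was called in 1 library of each genotype, at 2.1 in Sphk2 KO replicate 1 and 3.61 in WT replicate 1. Fold enrichment over the Osm regions was between 2.02 and 6.39. At the strongest region it was 5.72 and 5.91 in Sphk2 KO and 6.39 and 5.55 in WT, with a pileup at the summit of 149 and 283 fragments in Sphk2 KO and 201 and 227 in WT.

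Tnf carried 1 broad region in all 4 libraries. Tnf lies on chromosome 17 from 35199367 to 35202007 on the reverse strand, between its relatives Lta and Ltb, and the region spanned 35200448 to 35202297. Its best peak had −log10 q of 26.7 and 57.8 in Sphk2 KO and 46.4 and 43.7 in WT. Each library had its summit within the gene, 1319 and 1388 bp downstream of the start in Sphk2 KO and 1336 and 1331 bp in WT. A second peak at the promoter was separate in both Sphk2 KO libraries (18.5 and 29.0) and in WT replicate 1 (31.8), and it joined the first in WT replicate 2. The promoter window printed above was covered over all 300 bases in every library. Over all genes with a window, 41.9% had a promoter peak in all 4 libraries. The genotypes overlapped at Tnf.

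Ebi3 also had its 1 region at the promoter, in all 4 libraries. Ebi3 lies on chromosome 17 from 55952623 to 55957022. The region, 55952307 to 55953308, had −log10 q of 18.0 and 39.9 in Sphk2 KO and 27.0 and 28.0 in WT, with summits 26 bp apart at most. Peaks covered 231 and 181 of the 300 promoter bases in Sphk2 KO and 300 and 295 in WT, and the peaks were narrower in Sphk2 KO (578 and 485 bp) than in WT (771 and 931 bp). How many of all regions had narrower peaks in both Sphk2 KO libraries was not computed, so this order cannot be called particular to Ebi3. The NF-κB letters 44 bases before the start lay inside the peaks of all 4 libraries. Il27, which encodes the partner chain, had weak calls by comparison. It lies on chromosome 7 from 126589009 to 126595035, and the region at its higher-coordinate end had −log10 q of 3.03 and 6.67 in Sphk2 KO and 2.22 and 4.15 in WT. This region is a chain of overlapping peaks whose summits lay up to 843 bp apart, and the peaks of the 2 WT libraries did not touch each other. A neighbouring region was called in Sphk2 KO replicate 1 (5.12) and in both WT libraries (3.35 and 3.89), and another 12.2 kb away in WT replicate 1 alone (6.38). In all, Il27 had 2 and 1 regions in Sphk2 KO and 3 and 2 in WT (exact permutation p = 0.667, adjusted p = 1). The direction turned with stricter lists: Il27 averaged 1.5 regions in Sphk2 KO and 0.5 in WT with equal numbers of top peaks, and 1 in Sphk2 KO and 0.5 in WT at −log10 q of at least 5.

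Il12a and Il12b, the chains of IL-12, differed from each other. Il12a lies on chromosome 3 from 68690644 to 68698550 and had 3 regions in all 4 libraries. The region 13.4 kb before the gene had −log10 q of 21.2 and 43.1 in Sphk2 KO and 22.3 and 42.5 in WT. The region 10.8 kb beyond its other end had 17.9 and 41.1 in Sphk2 KO and 35.7 and 40.6 in WT. The third lay inside the gene at 68691297 to 68692758, with 9.15 and 6.78 in Sphk2 KO and 5.24 and 9.79 in WT. It reached into the window of the second listed start of Il12a in 3 libraries (177 and 175 bases in Sphk2 KO, 175 in WT replicate 2), whereas the window of the first start had no peak in any library. Single calls inside the gene at 3.25 in Sphk2 KO replicate 1 and 3.33 in WT replicate 1 made up the rest.

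Il12b, which encodes the chain shared by IL-12 and IL-23, lies on chromosome 11 from 44400063 to 44414677. It had no peak within 1 kb of either end and none inside the gene in any library. A peak at 44417496 to 44417755, beyond the end of the gene opposite to the start and 2.9 kb from it, was called in Sphk2 KO replicate 2 alone. Its −log10 q was 10.5 and its fold enrichment 5.56. Among all genes with a promoter window, 49.6% had no peak in the promoter window in any library.

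**Figure D2:**
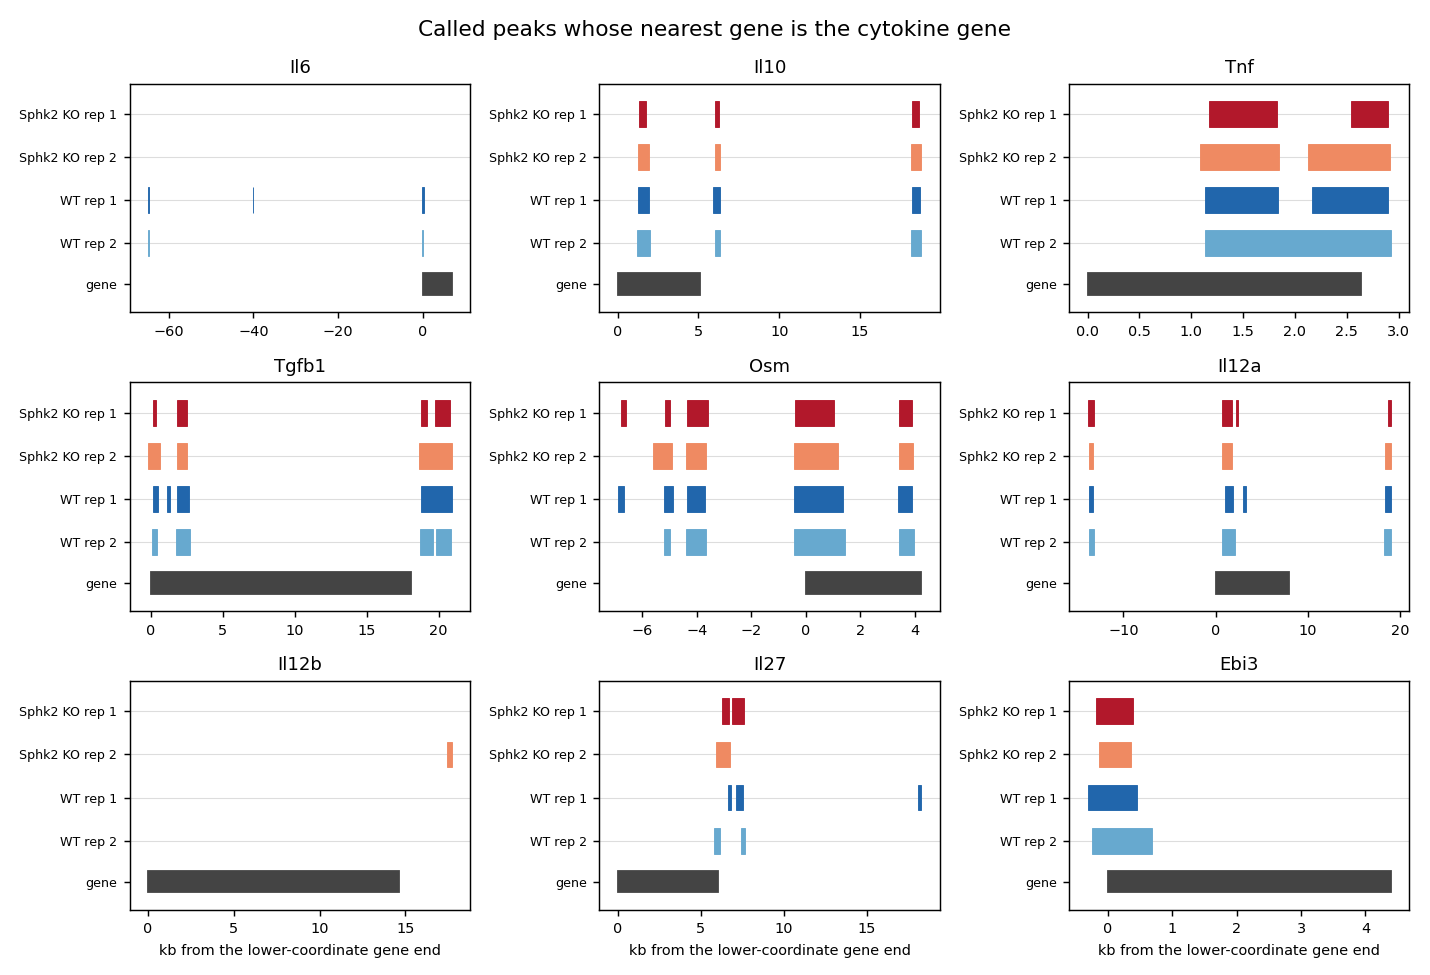
Positions of the called peaks around each cytokine gene. Each panel has its own scale in kb from the lower-coordinate gene end, coloured boxes are peaks of the 4 libraries (Sphk2 KO above WT), and the dark bar is the gene. The Sphk2 KO rows are empty at Il6, and the single Il12b peak is in Sphk2 KO replicate 2.

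Il10 kept all of its 3 regions in every library, and 2 of them ranked higher in both WT libraries. Il10 lies on chromosome 1 from 131019845 to 131024970 and encodes a cytokine that restrains macrophages and dendritic cells. The strongest, 131038033 to 131038652, lay 13.3 kb beyond the gene, with −log10 q of 22.0 and 42.2 in Sphk2 KO and 41.2 and 54.5 in WT. To compare strength without list length, regions were ranked within each library among the 16973 regions called in all 4 libraries. There this region ranked 8360 and 8709 in Sphk2 KO and 7262 and 6289 in WT. The region 1.0 kb from the same gene end had −log10 q of 5.29 and 11.2 in Sphk2 KO and 22.6 and 17.9 in WT, with ranks of 15420 and 15367 in Sphk2 KO and 10997 and 13221 in WT. The region inside the gene overlapped between genotypes, at 6.75 and 11.7 in Sphk2 KO and 12.0 and 9.88 in WT.

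Tgfb1 showed both orders within 1 gene. It lies on chromosome 7 from 25687002 to 25705077 and encodes the main transforming growth factor β of immune cells. The region 2.3 kb inside the gene, 25688768 to 25689722, had −log10 q of 11.6 and 31.7 in Sphk2 KO and 46.7 and 35.2 in WT, and ranks of 12013 and 10435 in Sphk2 KO and 6467 and 9227 in WT. The region at the start, 25686817 to 25687692, had 4.72 and 11.2 in Sphk2 KO and 6.85 and 6.53 in WT, and here both Sphk2 KO ranks (15776 and 15384) were ahead of the WT ranks (16023 and 16429). The promoter window was touched by a peak in Sphk2 KO replicate 2 alone (235 bases), since the other peaks began after the start. A region of 2259 bp beyond the other end had 16.0 and 27.2 in Sphk2 KO and 28.8 and 17.6 in WT, without order by genotype. Tgfb1 and Il27 share their chromosome with Sphk2, at distances of 20 and 80.9 Mb.

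Over the 16 cytokine regions called in all 4 libraries, neither genotype prevailed in rank with the full lists. Both Sphk2 KO libraries were ahead of both WT libraries at 4 regions (25.0%), against 22.1% of all such regions. Both WT libraries were ahead at 4 (25.0%), against 21.3%, and 8 overlapped. The regions with Sphk2 KO ahead were those at the Tgfb1 start, inside Osm, at the higher-coordinate end of Il27 and at the Ebi3 promoter. Those with WT ahead were the Il10 and Tgfb1 regions just described and the Il12a region 10.8 kb from the gene, with ranks of 9536 and 8879 in Sphk2 KO and 8188 and 8285 in WT. Raw −log10 q values were lowest in Sphk2 KO replicate 1 at 14 of the 16, as they were at 85.5% of all regions called in all 4 libraries. With 1 library standing for WT, fewer regions overlapped. Without WT replicate 1, Sphk2 KO was ahead at 8 of 16 (50%) and WT at 6 (37.5%), and without WT replicate 2, Sphk2 KO was ahead at 8 of 17 (47.1%) and WT at 9 (52.9%). Ranked by fold enrichment instead, Sphk2 KO was ahead at 4 and WT at 5. Shares over all regions are given here for the full lists alone, so no lean to a genotype is read from counts at other settings. Sphk2 KO was ahead at 2 and WT at 4, of 14 regions at −log10 q of at least 5 and of 10 at 10. The same counts held for 13 regions with equal numbers of top peaks. With peaks within 500 bp counted as present, Sphk2 KO was ahead at 5 and WT at 4 of 19. Over every region in the windows, whichever gene was nearest, these were 7 and 16 of 56.

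**Figure D3:**
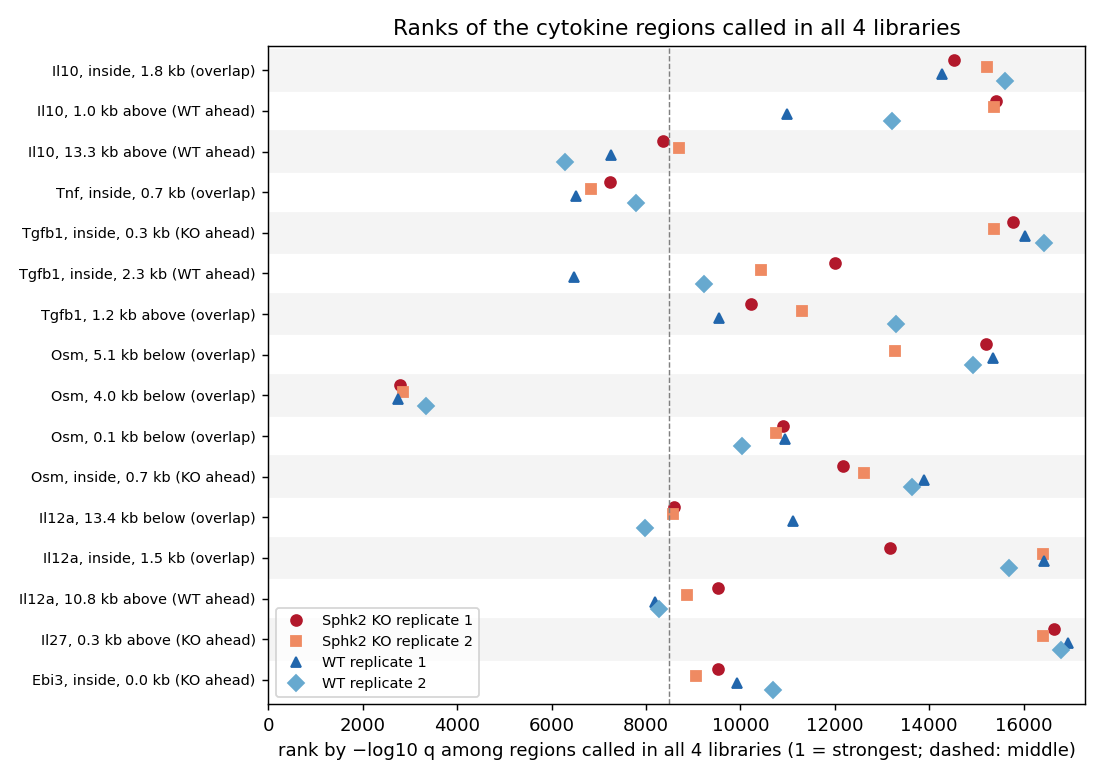
Ranks of the 16 cytokine regions present in every library. The horizontal axis gives a region's rank by −log10 q within each library among the 16973 regions called in all 4, with 1 the strongest, and the dashed line marks the middle rank. The Osm region 4.0 kb from the gene stands apart at ranks of 2749 to 3348, and the genotypes separate at 8 of the 16 regions, 4 in each direction.

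As a set, the 9 genes had mostly regions called in every library. Of the 26 regions, 16 (61.5%, exact 95% binomial interval 40.6 to 79.8, covering counting error only) were called in all 4 libraries, against 37.5% of all merged regions. This share was not particular to the 9 genes. Every region in their 70 kb windows, whichever gene was nearest and the 26 included, gave 56 of 92 (60.9%). None was called in both Sphk2 KO and neither WT library, where all regions had 0.605%. A further 6 (23.1%) were called in 1 library, against 41.9% of all regions. The libraries held 19 and 17 of the 26 in Sphk2 KO and 24 and 19 in WT. With 27217 merged regions, Sphk2 KO replicate 2 thus had fewer of the 26 than Sphk2 KO replicate 1, which had 20260. Without Sphk2 KO replicate 1, 1 region was Sphk2 KO-only (Il12b) and 3 were WT-only (at Il6 and Il27). Leaving out Sphk2 KO replicate 2 gave 1 Sphk2 KO-only region (Il12a). Without WT replicate 2 there were 6 WT-only regions, at Il6, Il12a, Tgfb1 and Il27. Most regions were near the genes, with 24 within 20 kb of a gene end and 10 with the mean summit inside a gene. The gene table used gives no exons or introns. Their median width was 724 bp, against 483 bp for all merged regions. In the ranking over regions called in all 4 libraries, the members' median rank was 11462 and 11034 in Sphk2 KO and 10976 and 11955 in WT, weaker than the middle rank of 8487 in every library.

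The order of the genes by their best region began with Osm in each library and varied after it. Next came Tnf in both Sphk2 KO libraries. Tgfb1 was the sixth in both Sphk2 KO libraries, and the second and the fifth in WT replicates 1 and 2. Il10 took second place in WT replicate 2. Il10, Tnf, Il12a and Ebi3 took places between 2 and 6 in each library. Il27 came last of the genes with a region in every library, sharing that place with Il6 in WT replicate 1. No exact test on a single gene could reach 0.05 with these 4 libraries.

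Receptors and sister ligands of these cytokines were examined in the same way. Of 20 sister ligand genes, 13 had a region, and 2 of 38 regions (5.26%) belonged to the Sphk2 KO pair alone and 2 (5.26%) to the WT pair alone. Over all merged regions these shares were 0.605% and 5.43%, and with 2 regions the first of them is a small count. The Sphk2 KO-only regions were inside Clcf1, a gp130 ligand gene (−log10 q 5.82 and 11.7), and inside Lif (2.4 and 10.1). The WT-only regions lay 16898 bp outside Lif (3.39 and 7.28) and inside Il33, an alarmin gene (2.38 and 6.11). Lta and Ltb, next to Tnf, had 1 and 2 regions in every library. Il11, Cntf, Il19, Il20, Il24, Il22 and Tgfb2 had no region.

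Of 16 receptor genes, 15 had regions, all but Osmr. Among their 53 regions, 1 (1.89%) was called in Sphk2 KO alone, 6977 bp outside Tgfbr2, a receptor for TGF-β (4.15 and 8.42). In WT alone 5 (9.43%) were called. The best-ranked was near Tnfrsf1b, a TNF receptor gene, at 17.4 and 12.0, and others were assigned to Acvrl1, Il10rb and Il6st, the last being the gp130 gene (4.94 and 2.57, 39049 bp from the gene). Of the 25 receptor regions called in all 4 libraries, 11 (44.0%) had both Sphk2 KO ranks ahead and 3 (12.0%) both WT ranks, against 22.1% and 21.3% of all regions. Sister ligand regions went the other way, with Sphk2 KO ahead at 2 of 15 (13.3%) and WT ahead at 5 (33.3%). No test was made of these shares.

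Signalling, release and transcription genes completed the pathway. Signalling genes had 0 Sphk2 KO-only and 3 WT-only regions of 75 (4.0%), near Ptpn11 and Socs3 and inside Smad4. Socs3, the feedback inhibitor of IL-6 receptors, had −log10 q of 6.04 and 11.6 in WT. Genes for cytokine activation, release and mRNA decay had 0 and 3 of 44 (6.82%), inside Zc3h12a, which encodes a nuclease that degrades Il6 mRNA (8.18 and 11.1 for the stronger of 2), and inside Zfp36l1 (9.75 and 9.62). Regulators of cytokine transcription had 0 Sphk2 KO-only and 8 WT-only of 96 regions (8.33%). Nfkb1 had 3 of these, the strongest 39485 bp from the gene at 13.8 and 24.3, Irf8 had 3, and Bcl6 and Maf 1 each. No region of Irf8, a factor needed for Il12b expression, was called in either Sphk2 KO library, against 3 and 5 in WT. Over the 5 lists together, 3 of 306 regions (0.98%) were Sphk2 KO-only, 21 (6.86%) WT-only and 164 (53.6%) in all 4 libraries. The same shares of all merged regions were 0.605%, 5.43% and 37.5%. Of the 164 regions, both Sphk2 KO ranks were ahead at 35 (21.3%) and both WT ranks at 49 (29.9%), against 22.1% and 21.3% of all regions called in all 4 libraries. The counts were 11 and 11 of 38 for signalling genes and 3 and 7 of 29 for activation, release and mRNA decay. For regulators of cytokine transcription they were 8 and 23 of 57 (14.0% and 40.4%). Sphk2 KO was thus ahead at more regions than WT in the receptor list alone. For signalling genes both shares were 28.9%. These differences between lists were not tested.

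**Figure D4:**
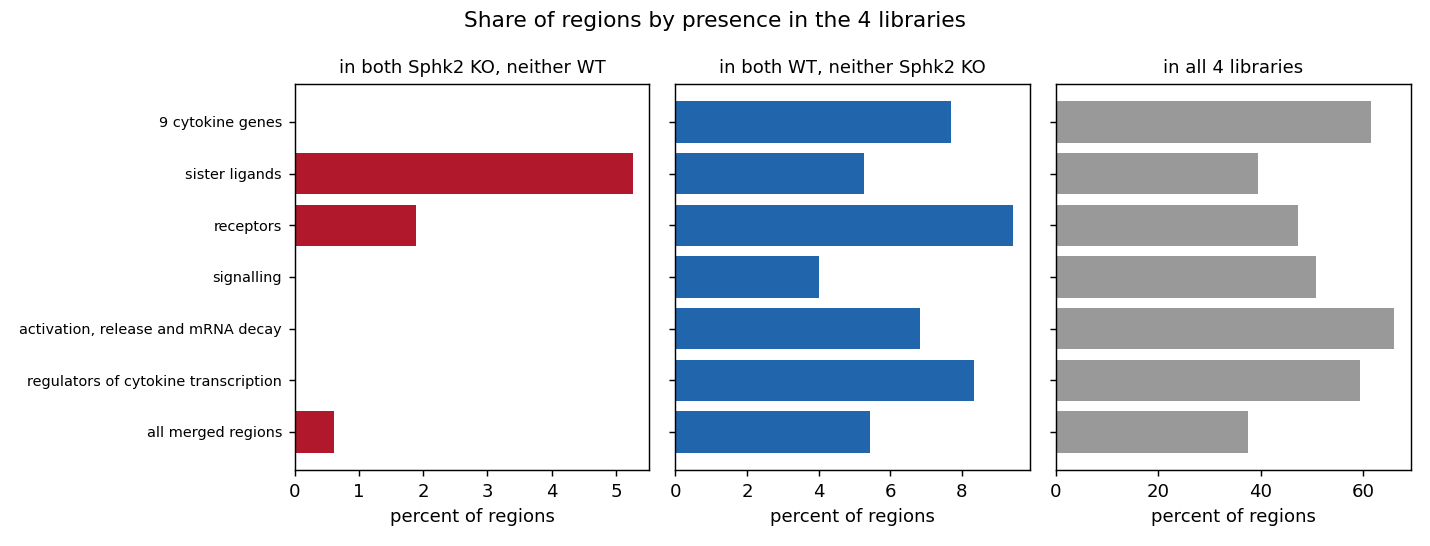
Shares of regions by presence. Bars give the percent of regions called in both Sphk2 KO libraries alone, in both WT libraries alone and in all 4 libraries, for the 9 cytokine genes, the 5 pathway lists and all merged regions, and each panel has its own axis from 0. The cytokine genes stand at 0, 7.69 and 61.5%, and all merged regions at 0.605, 5.43 and 37.5%.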

How the data were processed

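Adapters, alignment and peak calling were done by the authors with cutadapt, BWA and MACS2 on mm10, per the submitters' processing notes. Per the file headers, MACS 2.1.1.20160309 called peaks in each library separately from paired-end fragments, without a control, at a q-value of 0.05, with a local background of 10 kb and 1 fragment kept per position. Whether a Tn5 offset shift was applied was not given in the sources used. The deposited lists give pileup (a coverage signal, unscaled), −log10 p and q, and fold enrichment (a ratio over local background), all the authors' values for each peak, used only within a list. Positions are as the authors' files give them. Depth can limit which regions are called.

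Peaks sharing at least 1 bp were merged across libraries, and each library's best peak by −log10 q stood for a region. The nearest of 21887 RefSeq protein-coding genes (GRCm38.p6) was found from the mean summit to the nearer gene end. The gene table has no strand, so starts came from the promoter table. Groups followed the labels. Exact two-sided permutation tests compared regions per gene (SciPy 1.17.1, Python 3.11.15). Merging, presence classes and nearest genes were tested on simulated regions set far apart, without chained peaks or mixed calls. Every member was described, and pathway genes were named when a region was called in 1 genotype alone, at most 4 per list and direction. The members and lists were chosen with earlier results of these data known. Among marker genes, peaks no more than 1 kb from an end were found for 2 and 3 of 7 dendritic genes in Sphk2 KO and 3 and 3 in WT, 1 of 5 erythroid genes in every library, and 7 and 8 of 10 granulocytic genes in Sphk2 KO and 8 and 7 in WT.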

Additional observations from a re-analysis of the deposited data

How the results depend on the processing

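The count of 0 Sphk2 KO-only regions became 1 with equal numbers of top peaks (at Il27), 2 when every region in the windows was counted whichever gene was nearest (an alternative chosen after seeing the data), and 0 to 1 when 1 library was left out. The count of 2 WT-only cytokine regions became 1 with peaks of −log10 q of at least 5, 0 at 10, 1 with equal numbers of top peaks and 1 with genes extended by 20 kb. It was 5 when every region in the windows was counted. It ranged from 2 to 6 when 1 library was left out. The same 2 counts were unchanged with 250 bp summit windows, with peaks within 500 bp counted as present, with genes extended by 100 kb and with the nearest gene body. Under all alternatives run, the share called in all 4 libraries ranged from 45.2% to 73.1%. That of shared regions with Sphk2 KO ahead ranged from 12.5% to 50%. The alternatives recount regions of the same libraries, so a binomial interval cannot test whether these shares were stable. Of 216 means of regions per gene and genotype recomputed, 26 moved by more than 1 SD. This count does not measure stability. Leaving out 1 of 2 libraries moves their mean by less than 1 SD unless regions merge differently. Where the SD was 0, any change counted. The difference in regions per library, Sphk2 KO minus WT, changed sign at Il27 (from -1 to 0.5 at −log10 q of at least 5 and 1 with equal numbers of top peaks) and at Tgfb1 (from -0.5 to 0.5 at 10 and 0.5 with equal numbers), and the cause was not tested. The labels number the libraries but do not say that equal numbers share an animal or a day. With the replicate number as a block, also chosen after seeing the data, an exact sign-flip test gave p = 0.5, the smallest 2 pairs allow, at Il6 (mean difference -2.5) and Il27 (-1), and 1 at the other 7 genes. A region with a −log10 q near 1.3 may fall below the threshold in a library with fewer fragments, but the part of depth was not tested. The median −log10 q of the full lists was 15.7 and 19.1 in Sphk2 KO replicates 1 and 2. In WT replicates 1 and 2, with more fragments, it was 12.0 and 13.8.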

Other observations

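The windows of 70 kb held 66 further regions that had another gene as the nearest, of which 40 were called in all 4 libraries, 2 (3.03%) in both Sphk2 KO libraries alone and 3 (4.55%) in both WT libraries alone. Over all merged regions the last 2 shares were 0.605% and 5.43%. All 4 regions in the Il6 window lacked a Sphk2 KO call, 3 being called in both WT libraries and 1 in WT replicate 1 alone. Calls in 1 library made up 41.9% of all merged regions, and the share of all regions without any Sphk2 KO call was not computed. The 1 region of the Il6 window assigned to another gene lay 338 bp from an end of Tyms, the thymidylate synthase gene. It was 53.3 kb from Il6, with −log10 q of 7.13 and 5.42 in WT. In the Tnf window a Sphk2 KO-only region lay at Lst1, a leukocyte transmembrane protein gene (3.04 and 3.13), 10.9 kb from Tnf. In the Osm window both directions were found at Lif, 25.7 kb away (Sphk2 KO-only) and 48.4 kb away (WT-only). The Il27 window held a WT-only region near Sgf29, a histone acetyltransferase complex gene (4.26 and 4.76). Around Il10, 7 regions had Mapkapk2, a kinase that stabilises cytokine mRNAs, as the nearest gene, and none was confined to a genotype.

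The summits of the 4 libraries lay within 100 bp of each other at 9 of 16 regions (56.2%), with a median spread of 77 bp, against 70.2% and 60 bp over all regions called in all 4 libraries. The widest spreads were at the higher-coordinate end of Il27 (843 bp) and inside Il12a (734 bp). The summits of the region beyond the end of Tgfb1 opposite to its start were at the same base in all 4 libraries.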
